A study of Mus musculus with 10 samples.

Results

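The fatty acid elongases and desaturases considered here were 10 genes chosen by name, 6 elongases (Elovl1, Elovl3, Elovl4, Elovl5, Elovl6 and Elovl7) and 4 desaturases (Scd1, Scd2, Fads1 and Fads2), of 41249 gene identifiers counted in RNA from whole interscapular brown adipose tissue (iBAT). Of the 10, 9 were among the 13733 genes above the expression filter (a mean above 1 CPM, the read count scaled to the size of its library), and Elovl7 was not. Gene positions are those of GENCODE M21 on GRCm38. The depots came from 5 Axl KO and 5 wild-type (WT) male mice, with 1 library per mouse, and all 10 mice received a high-fat diet (HFD). Per the labels, HFD began when the mice were 6 to 8 weeks old and lasted 24 weeks, whereas the study's own text gives an older start and a longer feeding. The Axl KO mice were homozygous for a constitutive, whole-body "knockout-first" allele, a gene-trap cassette between exons 4 and 5 of Axl, derived from a pair of ES cell clones by blastocyst injection, after which the chimeras were bred with C57Bl6 mice. The WT mice were littermates. The comparison therefore concerns loss of Axl in every cell of the body and not in adipocytes alone.

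Long acyl chains are built in the endoplasmic reticulum in a repeated cycle, in which an ELOVL enzyme condenses acyl-CoA with malonyl-CoA and a reductase, a dehydratase and a further reductase complete the step. The SCD enzymes put the initial double bond into saturated acyl-CoA, and the FADS enzymes add further double bonds to polyunsaturated chains. Brown adipocytes make fatty acids at a high rate, and Elovl3 is known for its strong induction in brown fat during cold exposure.

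The total count per mouse was between 5431014 and 9580215. Axl itself was at 1.57 ± 0.647 CPM in Axl KO mice and 43.1 ± 5.90 CPM in WT mice (SD, n = 5 each), and it was the only gene of the 13733 with an adjusted p under 0.05 (log2 fold change −4.77, adjusted p = 9.952e-08 in the quasi-likelihood test of edgeR, adjusted by Benjamini-Hochberg). Skeletal muscle markers differed widely between depots: their summed level ran from 5.28 to 3091 CPM in Axl KO mice and from 750.4 to 3698 CPM in WT mice. Genotype means are compared below as log2 fold changes of Axl KO over WT with their standard errors (SE), and p-values are adjusted over all 13733 genes. As each depot was measured as a whole, fewer cells of a type and less RNA per cell cannot be told apart.

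None of the 9 tested elongases and desaturases passed the threshold of an adjusted p under 0.05, where 0.00728% of all tested genes did. DESeq2 also called none of the 9, and it called 0.0655% of all tested genes. The set held 7 genes with a higher and 2 with a lower fitted level in Axl KO mice, and 49.7% of all tested genes had a higher one. Elovl3 and Elovl5 had unadjusted p-values under 0.05, 2 of 9 against 8.31% of all tested genes in either direction and 4.47% in the higher direction. The groups overlapped for all 10 genes, whereas they did not overlap for 1.37% of the tested genes. Over the 5 tested elongases, all of them positive, the median log2 fold change came to 0.52, and over the 4 desaturases to −0.009, against −0.001 over all tested genes.

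**Figure D1:**
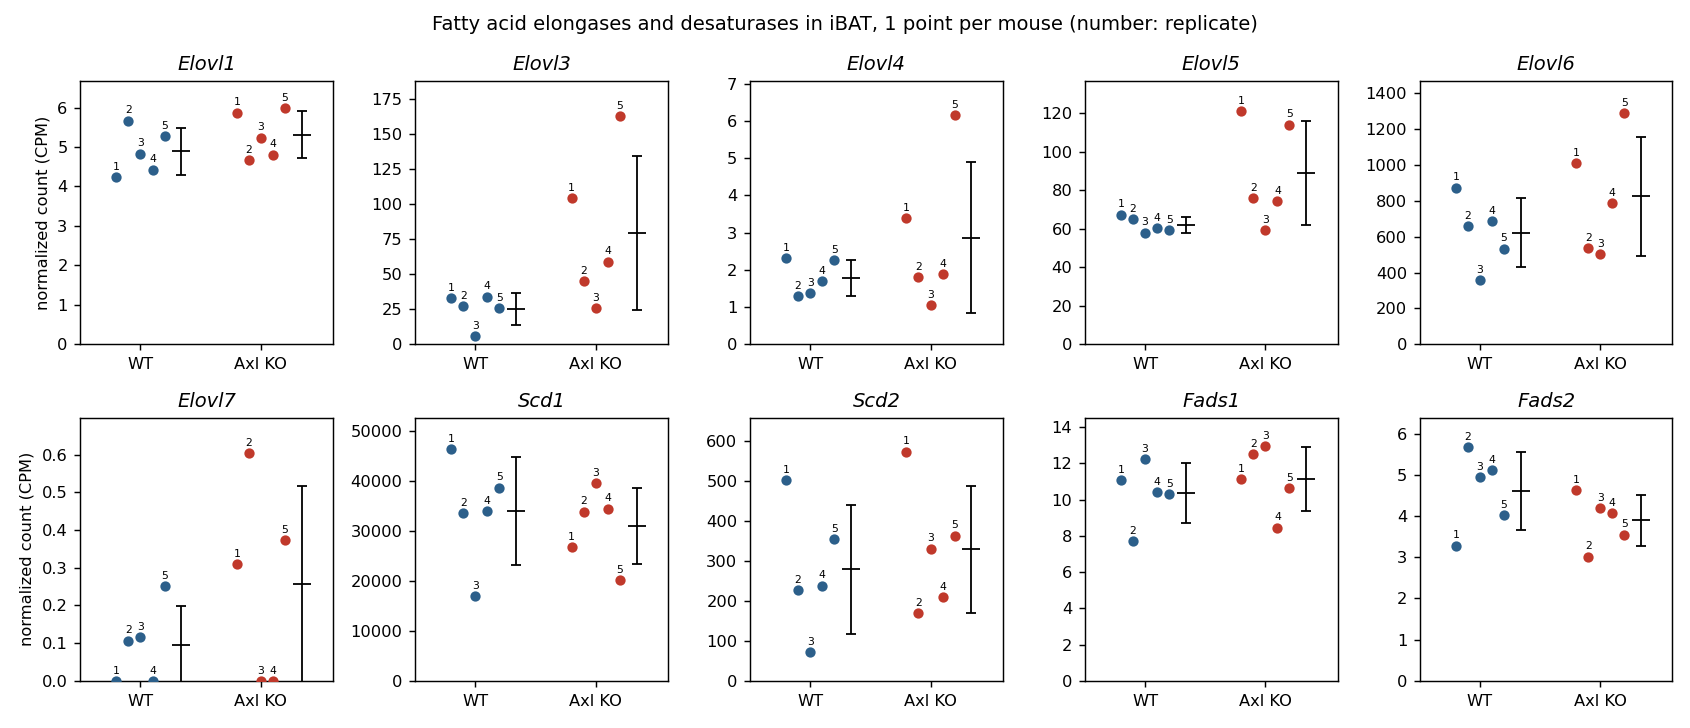
Normalized counts (CPM, linear axes from 0) of the 10 genes, with 1 point per mouse, the replicate number above it and the mean ± SD of each group of 5 beside it. Axl KO replicates 1 and 5 are the highest of 10 mice in each of the 5 tested elongases, the groups overlap in every panel, and Elovl7 lies near 0.

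Elovl6 (ENSMUSG00000041220, chr3:129532355-129638495, plus strand) elongates palmitate to stearate and was the most abundant elongase per length. Its level in Axl KO replicates 1 to 5 was 1009, 536.7, 503.5, 788.7 and 1289 CPM, and in WT replicates 1 to 5 it was 874.1, 658.7, 357.4, 688.9 and 534.1 CPM. The highest values belonged to Axl KO replicates 5 and 1 and the lowest to WT replicate 3, while the other 7 mice were interleaved. The means of 825 ± 331 and 623 ± 192 CPM differed by a log2 fold change of 0.41 (SE 0.27, 95% interval −0.18 to 0.99, adjusted p = 0.688 in edgeR's test). A two-sided exact permutation test of the mean CPM gave p = 0.294. Without Axl KO replicate 5 the log2 fold change was 0.19.

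Elovl3 (ENSMUSG00000038754, chr19:46131897-46135694, plus strand) elongates saturated and monounsaturated chains into the very long range. In Axl KO replicates 1 to 5 it was counted at 104.4, 45.3, 25.8, 58.9 and 162.8 CPM. In WT replicates 1 to 5 it was counted at 32.7, 27.4, 5.64, 33.9 and 25.5 CPM. Axl KO replicates 1, 2, 4 and 5 were above all WT mice, whereas replicate 3 lay between WT replicates 5 and 2, and WT replicate 3 was far below every other mouse. Between the highest and the lowest mouse the level differed 28.9-fold, the widest span of the 9 tested genes.

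The log2 fold change of Elovl3 was 1.67 (SE 0.49, 95% interval 0.61 to 2.73). In edgeR's quasi-likelihood test its p was 0.0049 unadjusted and 0.577 adjusted, and a two-sided exact permutation test of the mean CPM gave p = 0.0317, where 0.00794 is the smallest that 5 against 5 mice allow. Of all tested genes 0.167% were higher by at least 1 log2 unit in Axl KO mice, and Elovl3 was the only elongase or desaturase among them. By unadjusted p it ranked at position 100 of 13733. The estimate was 1.23 without Axl KO replicate 5 and 1.90 without Axl KO replicate 3, and with Axl KO replicates 1 and 5 both left out, an alternative chosen after seeing the data that removes the highest mice, it was 0.80 (adjusted p = 0.996 in edgeR's test).

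Elovl1 (ENSMUSG00000006390, chr4:118428093-118432953, plus strand), which elongates saturated very long chains in most tissues, was at 5.32 ± 0.597 CPM in Axl KO and 4.89 ± 0.592 CPM in WT mice. The values spanned 4.68 to 5.98 CPM and 4.24 to 5.67 CPM, so that the ranges overlapped almost entirely. Its log2 fold change was 0.11 (SE 0.14, 95% interval −0.20 to 0.42, adjusted p = 0.879 in edgeR's test). Elovl7 (ENSMUSG00000021696, chr13:108214404-108285683, plus strand), which elongates long saturated chains, had 12 counts in all 10 mice together. No read was counted in Axl KO replicates 3 and 4 or in WT replicates 1 and 4, and the highest count was 4, in Axl KO replicate 2. A count of 0 allows up to 3 counts, or 0.313 to 0.552 CPM in these libraries, so a difference in Elovl7 was not detectable at this depth.

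Elovl5 (ENSMUSG00000032349, chr9:77917364-77984519, plus strand) elongates polyunsaturated chains derived from the essential fatty acids. Axl KO replicates 1 to 5 had 121.2, 75.9, 59.2, 74.5 and 114.2 CPM, and WT replicates 1 to 5 had 67.3, 65.1, 58.0, 60.3 and 59.4 CPM. The WT mice were tightly grouped (a coefficient of variation of 6.42%, against 30.5% in Axl KO mice), 4 Axl KO mice lay above all of them, and replicate 3 lay among them. The log2 fold change was 0.52 (SE 0.17, 95% interval 0.15 to 0.88), with p-values in edgeR's quasi-likelihood test of 0.00904 unadjusted and 0.577 adjusted, and with p = 0.0397 in the two-sided exact permutation test. It was between 0.38 and 0.64 when single mice were left out and 0.17 without Axl KO replicates 1 and 5 together.

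Elovl4 (ENSMUSG00000032262, chr9:83778692-83806277, minus strand) makes the longest saturated and polyunsaturated chains and is known from retina, brain and skin. It was counted 9 to 33 times per mouse, which gave 3.40, 1.81, 1.05, 1.90 and 6.17 CPM in Axl KO replicates 1 to 5 and 2.33, 1.28, 1.38, 1.70 and 2.26 CPM in WT replicates 1 to 5. Axl KO replicates 5 and 1 were the highest, and Axl KO replicate 3 was the lowest of the 10. The log2 fold change was 0.62 (SE 0.42, 95% interval −0.29 to 1.53, adjusted p = 0.689 in edgeR's test), and 0.16 without Axl KO replicate 5. Elovl3 and Elovl4 are also known from skin. Of the 10 skin and sebaceous gland markers, Krt5, Krt14, Krt1, Krt15 and Dsp had no count in any mouse. Krt10 and Sbsn were above the filter, with means of 1.4 and 2.0 CPM in Axl KO and 1.7 and 2.2 CPM in WT mice. The summed level of the list was 3.18 to 4.79 CPM in Axl KO and 3.77 to 5.76 CPM in WT mice.

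The sequences before the transcription starts of Elovl5 and Elovl6 are shown because both genes varied with Elovl3 from mouse to mouse (below). They were taken from the RefSeq promoter table of GRCm38.p6, which holds windows of 300 bases for 6 of the 10 genes, and each is printed from 5′ to 3′ up to the base before the annotated gene start. Capitals mark matches on either strand to the CCAAT box, to the E-box CACGTG or to the nuclear receptor half-site AGGTCA. On the opposite strand the CCAAT box reads ATTGG and the half-site reads TGACCT.
Elovl5, chr9:77917115-77917363, plus strand: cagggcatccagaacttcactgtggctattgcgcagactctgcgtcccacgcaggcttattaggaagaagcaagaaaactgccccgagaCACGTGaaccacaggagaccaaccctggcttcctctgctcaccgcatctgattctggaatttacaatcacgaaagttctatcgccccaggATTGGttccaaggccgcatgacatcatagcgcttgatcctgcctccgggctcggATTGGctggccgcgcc
Elovl6, chr3:129532136-129532354, plus strand: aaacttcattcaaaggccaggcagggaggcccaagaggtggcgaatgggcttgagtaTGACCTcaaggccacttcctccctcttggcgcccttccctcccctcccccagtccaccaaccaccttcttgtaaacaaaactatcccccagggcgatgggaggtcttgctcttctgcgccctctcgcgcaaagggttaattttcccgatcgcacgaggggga
Elovl5 had 2 CCAAT matches, 71 and 17 bases before the RefSeq start, and 1 CACGTG match 161 bases before it, none of which overlapped, and Elovl6 had 1 AGGTCA match 193 bases before it. Of 32817 promoter windows of this length, 37.4% held CCAAT, 7.1% held CACGTG and 16.3% held AGGTCA. An exon of the antisense gene Gm35986 overlaps the stretch printed for Elovl6. Across the other windows, 1 of the Elovl1 windows held CCAAT and the other AGGTCA, the Elovl4 window held CCAAT and CACGTG after the start, and those of Elovl7 and Fads2 held none of the 3 motifs.

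Scd1 (ENSMUSG00000037071, chr19:44394455-44407879, minus strand), the main stearoyl-CoA desaturase of adipose tissue, ranked at position 2 of all genes by count in each of the 10 mice. Its share of all counts was between 1.77% and 4.56%. Its levels were 26780, 33910, 39570, 34520 and 20150 CPM in Axl KO replicates 1 to 5 and 46440, 33670, 17040, 34000 and 38710 CPM in WT replicates 1 to 5. WT mice held both the highest and the lowest value, and Axl KO replicates 5 and 1, the mice with the most Elovl3, had the least Scd1 of their group. The log2 fold change was −0.13 (SE 0.23, 95% interval −0.64 to 0.37, adjusted p = 0.896 in edgeR's test), and it was −0.30 without WT replicate 3 and 0.006 without WT replicate 1.

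Scd2 (ENSMUSG00000025203, chr19:44293674-44306864, plus strand), a second enzyme of the same reaction known from brain and developing skin, had 573.3, 169.1, 330.7, 208.7 and 363.4 CPM in Axl KO replicates 1 to 5. WT replicates 1 to 5 had 502.7, 226.6, 71.4, 238.5 and 354.2 CPM. The groups were interleaved, with replicate 1 the highest of either genotype and WT replicate 3 the lowest. The log2 fold change was 0.24 (SE 0.42, 95% interval −0.68 to 1.16, adjusted p = 0.897 in edgeR's test), and it was −0.06 without Axl KO replicate 1 and 0.56 without WT replicate 1. Of the 50-base windows in Scd1 and Scd2 transcripts, 4.56% and 3.97% also occur in other genes, mainly in each other, Scd3 and Scd4. A small part of the Scd1 reads could therefore have been assigned to a near-identical copy. For Scd2 the part could be larger, as the WT means were 33970 CPM for Scd1 and 278.7 CPM for Scd2. How many Scd2 counts came from Scd1 was not tested.

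Fads1 (ENSMUSG00000010663, chr19:10182888-10196877, plus strand) and Fads2 (ENSMUSG00000024665, chr19:10062765-10101746, minus strand) are neighbours that encode the desaturases of polyunsaturated chains, of which Fads2 acts at the entry step. Fads1 was at 11.1 ± 1.77 CPM in Axl KO and 10.3 ± 1.66 CPM in WT mice, with values from 8.45 to 12.9 and from 7.71 to 12.2 CPM. Fads2 was at 3.90 ± 0.626 CPM in Axl KO and 4.61 ± 0.949 CPM in WT mice, with values from 3.02 to 4.64 and from 3.28 to 5.67 CPM. Both ranges overlapped, and the log2 fold changes were 0.11 (SE 0.15, 95% interval −0.20 to 0.43) and −0.24 (SE 0.19, 95% interval −0.64 to 0.16), with adjusted p-values of 0.844 and 0.737 in edgeR's test. None of the 4 desaturases had an unadjusted p under 0.05.

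**Figure D2:**
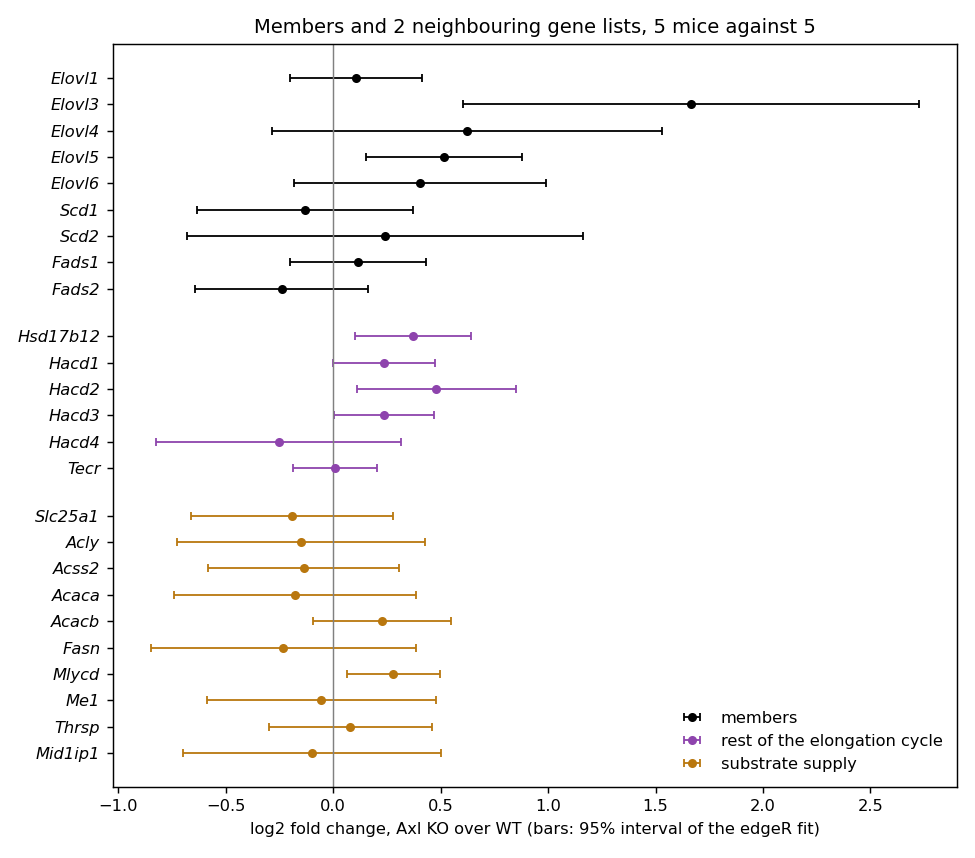
Log2 fold changes of Axl KO over WT (horizontal axis) with 95% intervals of the edgeR fit, for the 9 tested elongases and desaturases, the 6 tested genes of the rest of the elongation cycle and the 10 of substrate supply. Elovl3 stands farthest to the right at 1.67 with the widest interval, and the intervals of Elovl5, Hsd17b12, Hacd2, Hacd3 and Mlycd also lie above 0.

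Levels of different genes were compared as CPM per kilobase of exon. In WT mice Scd1 was at 6944 ± 2203 CPM per kilobase, Elovl6 at 96.8 ± 29.8, Scd2 at 51.0 ± 29.4, Elovl5 at 17.6 ± 1.13 and Elovl3 at 12.7 ± 5.77 (SD, n = 5). Fads1 (2.15 ± 0.344), Elovl1 (1.80 ± 0.217), Fads2 (1.40 ± 0.288) and Elovl4 (0.592 ± 0.160) followed, with Elovl7 last at 0.0236 ± 0.0259 CPM per kilobase. Ranges of the 5 WT values were separate between Scd1 and Elovl6, Elovl3 and Fads1, Fads2 and Elovl4, and Elovl4 and Elovl7. The other neighbours overlapped. Within single WT mice, Elovl6 exceeded Scd2 and Elovl1 exceeded Fads2 in 5 of 5. The remaining overlapping neighbours kept their order in 4 of 5.

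In Axl KO mice the order was the same except that Elovl3, at 40.2 ± 27.8 CPM per kilobase, stood above Elovl5, at 25.3 ± 7.71, although their values overlapped. Elovl3 exceeded Elovl5 in 4 of 5 Axl KO mice, and Elovl5 exceeded Elovl3 in 4 of 5 WT mice. Using the longest annotated transcript in place of all exons left both orders as they were.

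**Figure D3:**
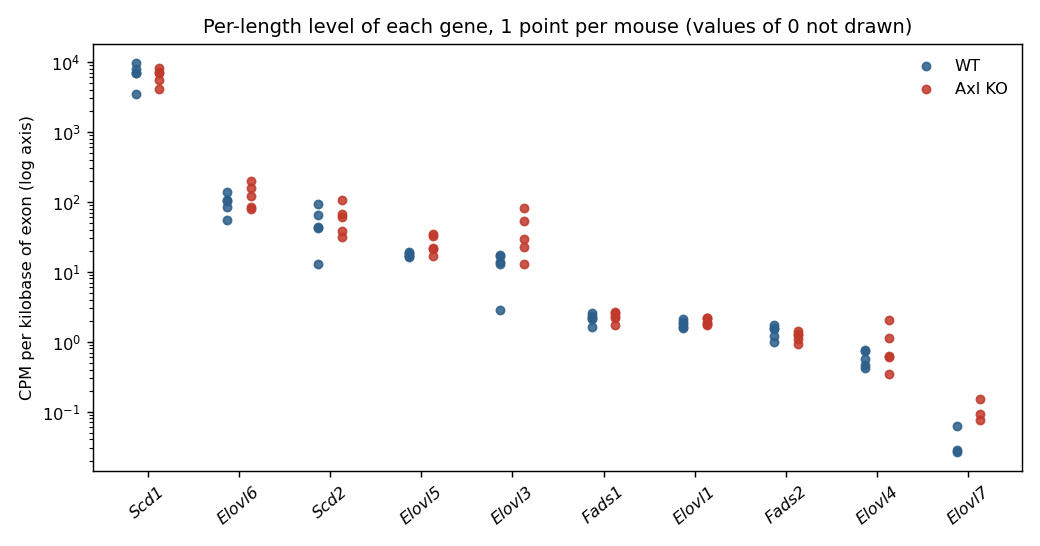
Level of each gene in CPM per kilobase of exon on a log axis, with 1 point per mouse and values of 0 not drawn. Scd1 stands above all others in every mouse at 3484 or more, Elovl3 has the widest spread among the abundant genes, and Elovl7 lies at the bottom with 0.150 at most.

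As shares of the summed per-length level of the 6 elongases, Elovl3 made up 18.7 ± 5.22% in Axl KO and 9.29 ± 3.26% in WT mice, and Elovl6 made up 66.1 ± 3.85% and 74.2 ± 2.56%. The Elovl6 share was 62.7% to 70.9% in Axl KO and 71.9% to 78.2% in WT mice without overlap, whereas the Elovl3 share was 11.8% to 25.8% and 3.70% to 12.0% with overlap. Elovl5 held 13.6 ± 2.54% and 14.5 ± 4.09%. With the longest annotated transcript as the length, the Elovl6 share was 61.95% to 68.89% in Axl KO and 68.97% to 76.67% in WT mice, nearly touching. Such shares sum to the same total in each mouse and are not independent of each other, and they were not tested. Scd2 was 1.04 ± 0.652% of the 2 Scd genes in Axl KO and 0.674 ± 0.223% in WT mice, a share that the shared sequence of the pair also limits.

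The order of the mice recurred in several of these genes. Axl KO replicates 1 and 5 were the highest 2 of the 10 mice in all 5 tested elongases. Axl KO replicate 3 was the lowest of its group in 4 of these 5. WT replicate 3 was the lowest of all mice in 5 of 9 tested genes (Elovl3, Elovl5, Elovl6, Scd1 and Scd2). The share of all tested genes with the same highest 2 mice was not determined. Axl KO replicates 1 and 5 were also the highest 2 in genes outside the set, such as Ppard and Prdm16, but not in Ucp1 or Dio2. With Axl KO replicates 1 and 5 left out together, an alternative chosen after seeing the data that lowers the elongase values by construction, 4 of 9 genes were higher in Axl KO mice instead of 7, none had an unadjusted p under 0.05, and Elovl1, Elovl4 and Elovl6 were at log2 fold changes of −0.002, −0.19 and −0.03. The same 2 mice differed in the summed skeletal muscle markers, at 23.2 CPM in Axl KO replicate 1 and 3091 CPM in replicate 5. With the muscle markers as a covariate, Elovl3 was at 1.80, Elovl4 at 0.79, Elovl6 at 0.54, Elovl5 at 0.47 and Elovl1 at 0.11 on the log2 scale. None of the 9 genes passed the adjusted threshold in that fit.

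**Figure D4:**
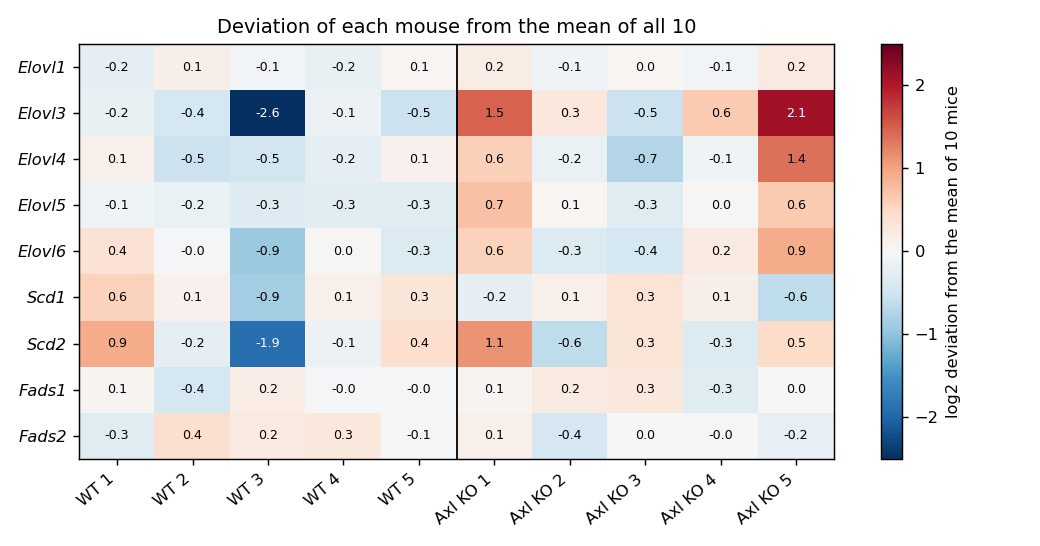
Log2 deviation of each mouse from the mean of all 10 for the 9 tested genes (rows), with WT mice left and Axl KO mice right of the line and the value printed in each cell. Axl KO replicates 1 and 5 are positive in every elongase row, WT replicate 3 is strongly negative for Elovl3, Scd2, Elovl6 and Scd1, and the Fads rows stay near 0.

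Over the 10 mice, 19 of 36 pairs of tested genes had a positive correlation of log2 CPM, and 2 pairs had an adjusted p under 0.05 in permutation tests with 100000 resamples, adjusted over a family of 63 pairs that included Srebf1, Ucp1 and Dio2. Elovl3 and Elovl5 had a Pearson's r of 0.844 (permutation p = 9e-05, adjusted p = 0.00567) and a Spearman's rho of 0.927 (permutation p = 0.00052), and r was 0.944 without WT replicate 3 and Axl KO replicate 5, the mice farthest from the median of Elovl3. Elovl3 and Elovl6 had an r of 0.900 (permutation p = 0.0005, adjusted p = 0.0157) and a rho of 0.867 (permutation p = 0.00196), and r was 0.699 without the same 2 mice. When each mouse was set against its own genotype mean and all 10 mice were pooled, these r were 0.735 and 0.937. Neither genotype was examined alone. The share of all tested genes with an r this high to Elovl3 was not determined, and the 5 genes most like it, all outside the set, had an r of 0.968 to 0.976 (below). The permutations moved mice across genotypes, so their p-values also take in the genotype differences. None of the other pairs of elongases had an adjusted p under 0.05. Elovl4 had an r of 0.767, 0.833 and 0.807 with Elovl3, Elovl5 and Elovl6, and Elovl5 one of 0.791 with Elovl6. Their adjusted permutation p was 0.065 to 0.107, and r was 0.361 to 0.695 without the 2 mice farthest from the median of 1 gene of the pair. Elovl1 had an r of 0.342 to 0.585 and a rho of 0.2 to 0.261 with the other 4 (permutation p of r 0.0785 to 0.334 and of rho 0.469 to 0.584, adjusted p 0.33 to 0.568).

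No relation of Elovl3 to Scd1 was detected, with an r of 0.046 (permutation p = 0.896, adjusted p = 0.957) and a rho of −0.224 (permutation p = 0.535). Leaving out WT replicate 3 and Axl KO replicate 5 turned this r to −0.73. With Ucp1, the uncoupling protein of brown fat, Elovl3 had an r of 0.841 (permutation p = 0.00536, adjusted p = 0.0666) and a rho of 0.855 (permutation p = 0.00298), r was 0.731 against the genotype means, and r was 0.355 without the same 2 mice, which hold the ends of the Elovl3 range.

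**Figure D5:**
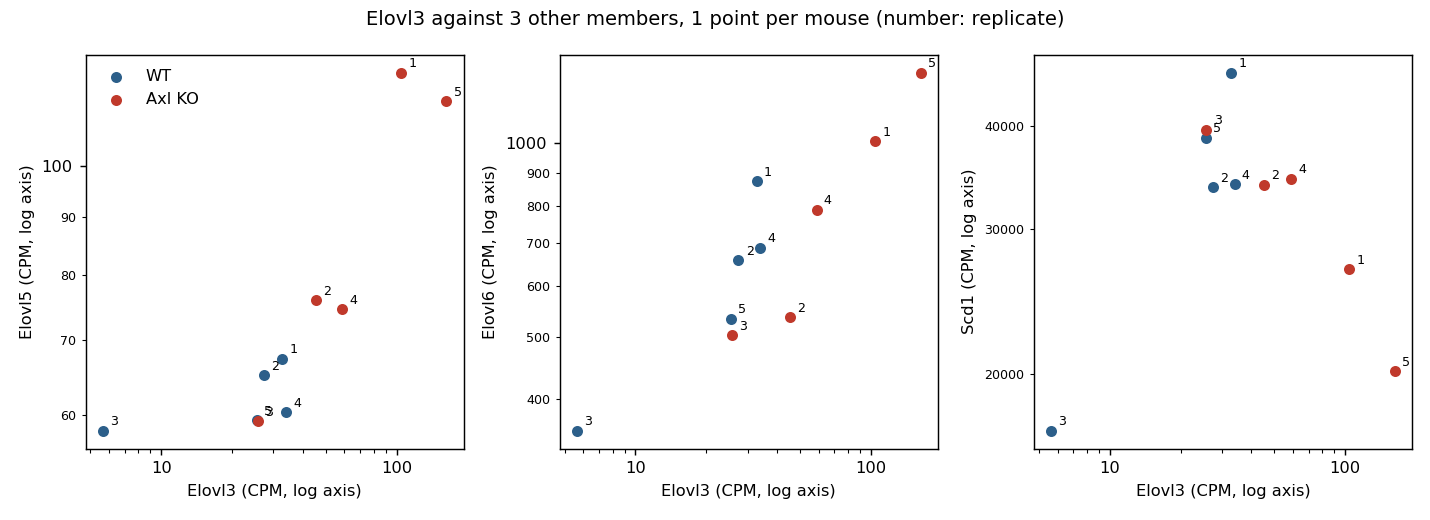
Elovl3 (horizontal) against Elovl5, Elovl6 and Scd1 (vertical) in CPM on log axes, with 1 numbered point per mouse. Elovl5 and Elovl6 climb with Elovl3 (r of 0.844 and 0.900), and Scd1 does not (r of 0.046), with WT replicate 3 low in all panels and Axl KO replicates 1 and 5 at the right.

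Among all tested genes, the profiles most like that of Elovl3 over the 10 mice belonged to Gm43738 (r = 0.976), Lamtor1 (0.975), Ube2f (0.973), Timm8b (0.971) and Pfkp (0.968). Those most like Scd1 were Psmd8 (r = 0.952), Glmn (0.952), Fer1l6 (0.946), Tacc3 (0.935) and Pet117 (0.929). The lists shared no gene. These genes were picked for their r, which is a description over the same 10 libraries.

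Of the 8 other enzymes of the elongation cycle, 6 were tested, 5 were higher and 1 lower in Axl KO mice (median log2 fold change 0.24). An unadjusted p under 0.05 was found for 3, and none passed the adjusted threshold. For this list and those below, 49.7% of all tested genes were higher and 8.31% had an unadjusted p under 0.05. Hsd17b12, the ketoacyl-CoA reductase, was at 346.5 ± 73.3 CPM in Axl KO and 267.4 ± 18.0 CPM in WT mice (log2 fold change 0.37, adjusted p = 0.577 in edgeR's test). The dehydratases Hacd2 and Hacd3 had log2 fold changes of 0.48 and 0.24, and Tecr, the reductase that ends the cycle, was at 140.4 ± 10.9 and 139.7 ± 18.1 CPM. In Hsd17b12 and Hacd2 the highest mice were again Axl KO replicates 5 and 1, with 439.8 and 398.8 CPM and with 183.0 and 120.6 CPM.

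The supply of malonyl-CoA and acyl-CoA was represented by 10 genes, of which 3 were higher and 7 lower in Axl KO mice (median −0.12), 1 had an unadjusted p under 0.05 and none passed. Fasn, the fatty acid synthase, had a log2 fold change of −0.23 (95% interval −0.85 to 0.38), and Acaca, which makes malonyl-CoA, had one of −0.18 (95% interval −0.74 to 0.38). Mlycd, which breaks malonyl-CoA down, was at 122.0 ± 19.3 CPM in Axl KO and 100.3 ± 7.17 CPM in WT mice (log2 fold change 0.28, adjusted p = 0.577 in edgeR's test). Among 12 other desaturases and genes of their electron chain, 9 were tested, with 5 higher, 4 lower and none at an unadjusted p under 0.05 (median 0.02). The largest difference there was that of Fads3, at −0.71 on the log2 scale, with 31.5 ± 19.7 CPM in Axl KO and 52.3 ± 23.2 CPM in WT mice.

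Of 14 known regulators of these genes, 10 were higher and 4 lower (median 0.04), 2 had an unadjusted p under 0.05 and none passed. Srebf1, a master factor of lipid synthesis genes, was at 417.4 ± 37.9 CPM in Axl KO and 423.5 ± 97.9 CPM in WT mice (log2 fold change −0.02). Mlx, the partner of the carbohydrate-responsive factor Mlxipl, was at 40.4 ± 2.87 and 33.8 ± 2.18 CPM (log2 fold change 0.25, adjusted p = 0.577 in edgeR's test), and the oxysterol receptor Nr1h3 was at 85.5 ± 8.78 and 74.8 ± 4.34 CPM. Ppard had the largest log2 fold change of the list, 0.28, which was −0.04 without Axl KO replicates 1 and 5.

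Among 16 genes that use very long or polyunsaturated acyl-CoA, such as ceramide synthases and enzymes of peroxisomal oxidation, 14 were tested, with 9 higher and 5 lower (median 0.02) and none past the threshold. Ehhadh had the largest difference, 0.62 on the log2 scale, with overlapping groups. In the clock list, 13 of 14 genes were tested, with 6 higher and 7 lower (median −0.03). Of the 13, 5 had an unadjusted p under 0.05, against 8.31% of all tested genes, and none was past the threshold. Arntl, the activating arm of the clock, had a log2 fold change of 0.54 without overlap, which 1.37% of all tested genes also lacked. Dbp had one of −0.72, Per3 one of −0.34, Clock one of 0.20 and Cry1 one of 0.16. The part of sampling time in the values of the elongases was not tested.

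Markers of cell types stood beside these values as follows, and no marker passed the threshold in edgeR's test. Brown adipocyte markers were higher in 9 of 10 genes (median 0.18), where 49.7% of all tested genes were. Cidea, Ppargc1a and Prdm16 were among the 9 at log2 fold changes of only 0.015, 0.024 and 0.043, and Ebf2 was lower at −0.086. Of the 10, 5 had an unadjusted p under 0.05, against 8.31% of all tested genes, and the groups did not overlap for 2, Dio2 and Cox8b, against 1.37%. In Axl KO and WT mice, Ucp1 was at 5557 ± 1171 and 4119 ± 864.1 CPM and Dio2 at 99.6 ± 28.5 and 53.8 ± 15.6 CPM. The summed level of the list, of which Ucp1 was the largest part, was 8774 to 12040 and 6903 to 9035 CPM. White adipocyte markers were higher in 2 of 5 (median −0.04), macrophage markers in 4 of 8 (median 0.006), erythroid markers in 3 of 5 (median 0.02), endothelial markers in 2 of 8 (median −0.13) and Schwann cell markers in 1 of 5 tested (median −0.09). Fibroblast markers were lower in 8 of 8 (median −0.32, summed level 483.7 to 812.3 CPM in Axl KO and 698.2 to 936.2 CPM in WT mice), and skeletal muscle markers were lower in 10 of 10 (median −1.05). The 8 B and T cell markers were all below the filter, and 2 of 10 skin markers were tested, both lower (median −0.18). The part of these cell types in the elongase values was not tested.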

How the data were processed

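RNA from whole iBAT of 10 male mice was sequenced. The authors deposited 1 table of raw read counts per mouse, unnormalized and unpooled. The study's methods name Trim Galore, hisat2 and rRNA depletion, whereas the submitters' processing notes list Trimmomatic 0.36, STAR 2.6.1c and GRCm38.p5, and the labels name polyA RNA. The counting tool and its strand setting are not given in the sources used here. No batch is given in the labels.

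Identifiers were matched to GENCODE M21 (41163 of 41249). Genes with a mean above 1 CPM were tested with edgeR 4.0.16 in R 4.3.3 (TMM normalization, quasi-likelihood test, Benjamini-Hochberg adjustment over 13733 genes). CPM are TMM-normalized, and correlations used log2(CPM + 0.5). DESeq2 1.42.0, other normalizations, filters, a covariate and left-out mice were alternatives. The procedure was tested on simulated data. No pair of libraries agreed within sampling noise (chi-square per degree of freedom at least 3.93). Total counts set the precision of genes with few reads. The floors of 3 counts describe counting error only, whereas the edgeR intervals also include the spread between mice. The genes named were Axl, Ucp1, Dio2, Srebf1, Hsd17b12, Tecr, Fasn, Acaca, every elongase and desaturase listed, genes of each pathway list and of the clock list with an unadjusted p under 0.05 or its largest change, and the 5 genes most correlated with Elovl3 and with Scd1. Keratins, Dsp, Sbsn, Cox8b, Cidea, Ppargc1a, Prdm16 and Ebf2 were named after their values were seen. Of the genes this rule names, 1 is not reported here. The genes and gene lists were chosen with earlier results of these data known.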

Additional observations from a re-analysis of the deposited data

Results flagged for a closer look

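Within groups of 5 mice, a value was singled out where its gap to the nearest mouse was more than 0.71 of the range of its group. This applied to 4 of 64 groups, where chance gives about 1 in 20, or 3.2. None was an elongase or desaturase listed above. In Axl KO replicate 4, Axl was at 0.4373 CPM, below the next lowest Axl KO mouse at 1.68 CPM. Ucp1 reached 7580 CPM in Axl KO replicate 5, the mouse with the most Elovl3, against 5579 CPM in the next. Srebf1 was at 483.3 CPM in Axl KO replicate 1, against 412.5 CPM in the next. Fads3 was at 65.6 CPM in Axl KO replicate 3, the mouse with the least Elovl3 of its group, against 28.2 CPM in the next.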

How the results depend on the processing

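Elovl3 and Elovl5 had an unadjusted p under 0.05 in 20 of 21 alternatives and an adjusted p under 0.05 in none (lowest 0.126, for both without Axl KO replicate 3). The exception was the fit without Axl KO replicates 1 and 5 together, chosen after seeing the data, in which Elovl3 was at 0.80 and Elovl5 at 0.17 on the log2 scale, 4 of 9 genes were higher, and the signs of Elovl1 (−0.002), Elovl4 (−0.191), Elovl6 (−0.032), Scd1 (0.083), Scd2 (−0.235), Tecr (−0.03) and Ppard (−0.043) turned. Removing the highest mice lowers such values by construction. When single mice were left out, 1 gene was called in every fit, 0 of the 9 genes were, and 6 to 8 of them were higher in Axl KO mice. Log2 fold changes then ran from 1.23 to 1.90 for Elovl3, 0.164 to 0.86 for Elovl4, −0.302 to 0.006 for Scd1 and −0.056 to 0.564 for Scd2. Those of Srebf1 ran from −0.092 to 0.095, of Tecr from −0.061 to 0.069, of Fasn from −0.415 to 0.03 and of Acaca from −0.348 to 0.061. DESeq2 called 9 genes, Dio2 (0.89) among them, and no elongase or desaturase listed. Tecr was at −0.057 with the skeletal muscle covariate. Cause was not tested in any of these.

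The labels give no pairing of same-numbered mice. Their deviations correlated between −0.356 and 0.373, and 1 of 5 Axl KO mice was closest to its own number. In Elovl3, Elovl5 and Elovl6, replicate 3 was the lowest in each genotype, which was not so in Elovl1 and Elovl4. Whether same-numbered mice shared a litter or batch was not tested. With the replicate block 1 gene was called, Elovl3 was at 1.585, Elovl5 at 0.471 and Srebf1 at 0.004. In that fit Elovl3 had an unadjusted p of 0.000393 and an adjusted p of 0.637 in edgeR's test. All 181 other fits of single elongases and desaturases kept direction and side of the threshold. Counts of 9 to 33 per mouse limit Elovl4, and Elovl7 lay below the filter.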
